A study of Mus musculus with 12 samples.

Results

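Fat of wild-type male mice, labelled gonadal white adipose tissue, was described from the 3 arrays labelled WT (replicates 1, 2 and 3) of a series of 12. The depot is known only from the label, and its markers were mixed. Wt1, Msln, Upk3b, Bnc1 and Tcf21, which mark gonadal fat or its mesothelium, were above background on 0 of the 12 arrays. Other markers of mesothelium or intra-abdominal fat, among them Krt18, Krt19, Lrrn4, Thbd, Nr2f1 and Gata6, were above it on all 12. So were 5 of 6 genes known for subcutaneous fat. The name of the depot is therefore used below only as the labels give it. Each array was hybridized with Cy3-labelled total RNA pooled from 3 mice of strain C57BL/6N, aged 59 to 67 days, so that the wild-type group holds 9 animals in 3 pools. The other 9 arrays hold 3 pools each of Gadd45a-/- mice (Gadd45a-KO), Ing1-/- mice (Ing1-KO) and Gadd45a-/-;Ing1-/- double mutants (DKO). All 4 genotypes, the wild type included, came from crosses between both deficient lines. No treatment is named for any group. Because the RNA of 3 mice was mixed before labelling, differences between individual mice cannot be seen. The replicate number also names the slide and the scan, and each wild-type pool lies on a slide of its own, so pool and slide cannot be told apart.

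White adipose tissue stores triglyceride in large, single lipid droplets and releases it as fatty acids in fasting. Its adipocytes also secrete hormones such as adiponectin, leptin, resistin and adipsin. They share the tissue with endothelial cells, fibroblast-like progenitors, macrophages and lymphocytes, and fat inside the abdomen is covered by a sheet of mesothelium. In RNA from whole tissue, fewer cells of a type and less RNA per cell cannot be told apart.

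Every value below is a log2 signal, that is the processed spot intensity on a log2 scale after each array was shifted to a common 75th percentile. A probe was taken as present on an array where the scanning software marked it as well above background. The dimmest spots so marked lay at 3.64 to 4.75 log2 units on the wild-type arrays, and lower values carry no level. A probe's brightness depends on its own sequence as well as on the transcript, so an order of brightness is an order of probes and not of RNA amounts. The median processed signal before scaling was 62.6, 39.3 and 54.8 in pools 1, 2 and 3, against 48.5 to 68.8 on the mutant arrays, so pool 2 was the dimmest of the 12. Between 58.2% and 65.6% of the spots on a wild-type array were well above background, 0 spots were saturated, and 3 to 7 of 308 negative control spots were marked present.

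Of 20871 genes named through a RefSeq accession, 14465 (69.3%) were well above background in all 3 wild-type pools, 1550 (7.43%) in 1 or 2 pools, and 4856 (23.3%) in none. Among protein-coding genes the share present in all 3 pools was 71.1%, and among the 962 long noncoding RNAs it was 35.8%. In the series as a whole, 14051 genes were present on all 12 arrays and 3662 on none. 0 genes were present in 3 wild-type pools and on 0 of the 9 mutant arrays, and 0 genes showed the reverse.

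The promoters of present and absent genes differed in their content of CpG, the dinucleotide that carries DNA methylation and that is kept at high density in the promoters of widely used genes. The sequences below are the 250 bases before the first listed start of 5 genes, from RefSeq on GRCm38.p6, with every CG in capitals. They were picked to show both ends of this range: a ribosomal protein gene (Rplp0), the thermogenic uncoupling protein (Ucp1), the adipocyte genes for adipsin (Cfd) and adiponectin (Adipoq), and an epididymal lipocalin that was absent from the tissue (Lcn5).
Rplp0: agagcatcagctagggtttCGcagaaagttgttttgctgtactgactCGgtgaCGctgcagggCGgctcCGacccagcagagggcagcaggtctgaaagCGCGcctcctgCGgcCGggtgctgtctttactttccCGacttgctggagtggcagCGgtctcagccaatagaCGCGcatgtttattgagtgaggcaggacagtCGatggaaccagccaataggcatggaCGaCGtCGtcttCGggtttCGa
Ucp1: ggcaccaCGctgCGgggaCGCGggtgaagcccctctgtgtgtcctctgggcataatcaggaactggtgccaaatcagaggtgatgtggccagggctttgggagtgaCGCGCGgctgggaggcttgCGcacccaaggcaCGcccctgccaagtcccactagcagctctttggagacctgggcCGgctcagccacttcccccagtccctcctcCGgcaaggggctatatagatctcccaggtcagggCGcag
Cfd: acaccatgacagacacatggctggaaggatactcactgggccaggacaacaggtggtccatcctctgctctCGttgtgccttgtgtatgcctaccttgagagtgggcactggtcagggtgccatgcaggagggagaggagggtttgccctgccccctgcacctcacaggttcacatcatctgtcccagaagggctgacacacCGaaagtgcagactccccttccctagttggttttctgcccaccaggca
Adipoq: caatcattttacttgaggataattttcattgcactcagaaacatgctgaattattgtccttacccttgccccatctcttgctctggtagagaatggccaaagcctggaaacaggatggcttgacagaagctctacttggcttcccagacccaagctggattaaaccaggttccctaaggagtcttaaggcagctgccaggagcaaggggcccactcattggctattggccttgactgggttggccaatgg
Lcn5: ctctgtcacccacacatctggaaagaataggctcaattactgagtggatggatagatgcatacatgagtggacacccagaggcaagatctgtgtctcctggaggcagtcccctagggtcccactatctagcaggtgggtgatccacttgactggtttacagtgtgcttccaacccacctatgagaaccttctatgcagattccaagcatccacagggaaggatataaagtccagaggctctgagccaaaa
The Rplp0 stretch, at chr5:115559217-115559466 on the plus strand, holds 19 CG, and its probe gave 17.76, 17.68 and 17.80 in pools 1, 2 and 3. The Ucp1 stretch, at chr8:83290098-83290347 on the plus strand, holds 12. Cfd, at chr10:79890603-79890852 on the plus strand, has 2 CG in the printed stretch although its probe was among the 10 brightest of the tissue. Adipoq, at chr16:23146286-23146535 on the plus strand, has 0 and gave 16.87, 17.43 and 16.50. The Lcn5 stretch, at chr2:25657702-25657951 on the plus strand, also has 0, and its probe was above background on none of the 3 arrays. The bright adipocyte genes and the absent epididymal gene were thus alike in this measure. Adipoq, Ucp1, Rplp0 and Lcn5 were picked for printing after their values were seen.

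A promoter window of 300 bases, 250 before the start and 50 after it, was at hand for 16538 of the named genes. The observed count of CG over the count that the window's C and G content gives was used to sort them. Below a ratio of 0.2, 34.6% of 3400 genes were present in all 3 pools and 53.0% in none. Above 0.8, 90.8% of 4980 genes were present and 5.36% were in none. The share present rose in each class between. A ratio of at least 0.6 was found for 50.7% of all windows, for 64.9% of those of genes present in 3 pools, and for 15.3% of those of genes present in none. All 15 ribosomal protein genes with a window had such a ratio, but only 23.5% of the 17 white adipocyte markers did. The TATA motif TATAAA, searched on both strands, was in 12.7% of all windows, in 8.35% of those of present genes and in 23.5% of those of absent genes. GGGCGG, the core of the GC box bound by Sp1, also searched on both strands, was in 48.7% of all windows, in 60.0% of those of present genes and in 19.4% of those of absent genes. These shares describe letters in a window and not bound factors.

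**Figure D1:**
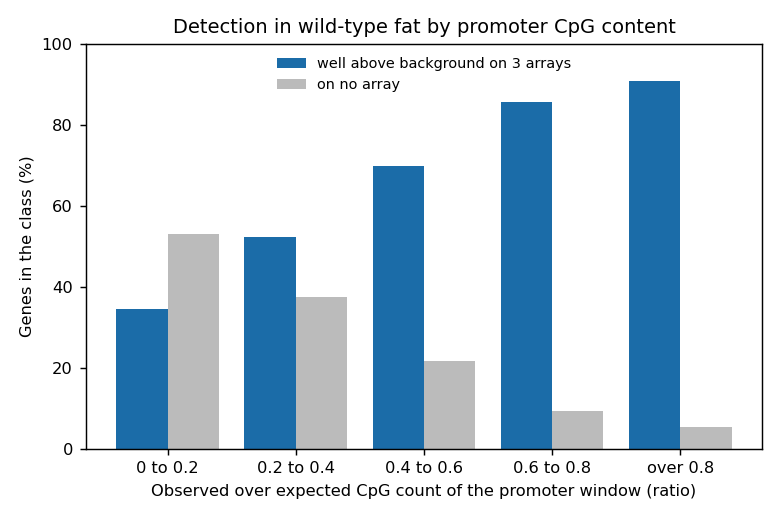
Share of genes, in percent, that were well above background in all 3 wild-type pools (blue) or in none (grey), by the observed over expected CpG ratio of the 300-base promoter window. The blue bars rise from 34.6% in the class of the lowest ratio to 90.8% in that of the highest, and the grey bars fall from 53.0% to 5.36%.

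Gene families that serve every cell were nearly complete. All 37 complex I subunits of the respiratory chain were present in 3 pools, as were 77 of 78 mitochondrial ribosomal proteins, 78 of 80 cytosolic ribosomal proteins and 38 of 40 proteasome subunits. Of 370 zinc finger genes with a Zfp symbol, 91.4% were present. Families that serve special organs were mostly absent. Of 1072 olfactory receptors, 887 (82.7%) were present in no pool, as were 208 of 256 vomeronasal receptors, 34 of 43 beta-defensins and 15 of 16 alpha-defensins, which are antimicrobial peptides of epithelia. Still, 68 olfactory receptors were present in all 3 pools. The brightest was Olfr544 with 11.42, 11.81 and 11.47, with an SD of 0.21 between pools. Of 97 cytochrome P450 enzymes, 41 were present in 3 pools and 42 in none. The homeobox Hox cluster genes, which keep the positional identity of a tissue, were present in 3 pools for 26 of 39 members. All 10 major urinary protein genes were present, but these are near-identical copies whose probes can take each other's signal.

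The sex given by the labels fits the marker probes. Ddx3y, a Y-linked RNA helicase, gave 11.52, 11.39 and 11.41 in pools 1, 2 and 3. Eif2s3y, a Y-linked translation factor, gave 12.14, 12.04 and 11.38. Xist, the RNA that silences an X chromosome in females, was above background in 0 pools.

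White adipocyte markers were all present and mostly bright. All 25 matched markers were present in 3 pools, with a median of 15.96 log2 units against 10.06 for all present genes. The housekeeping list had a median of 15.95 and the cytosolic ribosomal proteins 17.1. Brightness alone therefore does not set the adipocyte markers apart. Cfd (adipsin, a complement protease secreted by adipocytes) gave 18.34, 18.85 and 18.15. Fabp4, the fatty acid binding protein of adipocytes, gave 18.19, 18.55 and 18.06. Both were highest in pool 2 and lowest in pool 3. Car3, a carbonic anhydrase abundant in fat, gave 18.04, 18.31 and 17.83. Gpd1, which makes the glycerol backbone of triglyceride, gave 16.97, 17.72 and 17.00. The order of the pools was the same for Car3, and Gpd1 stood out in pool 2 alone.

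The enzymes that build and break down triglyceride were present nearly without exception. All 24 lipogenesis genes were present, led by Scd1 (stearoyl-CoA desaturase) with 17.59, 17.92 and 17.39, Dgat2 (the last step of triglyceride synthesis) with 17.04, 17.69 and 16.81, and Thrsp (a regulator of lipogenesis) with 16.86, 17.43 and 16.59. Pool 2 was highest for each of the 3. Of 20 genes of the lipid droplet and of lipolysis, 19 were present, led by Plin4, a droplet coat protein, with 16.47, 16.85 and 16.43, and by Pnpla2, the first lipase of triglyceride breakdown, with 16.47, 17.08 and 16.11. The exception was Fitm1, which was in no pool. All 21 genes of fatty acid oxidation and all 27 of oxidative phosphorylation were also present.

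Markers of brown and beige adipocytes were on the arrays as well. Of 20, 18 were present in 3 pools and the other two, Elovl3 and Fgf21, in 2 pools, with a median of 10.45 log2 units. Ucp1, which uncouples respiration to make heat, gave 12.29, 13.93 and 11.58, a span of over 4-fold. Cox7a1, a respiratory chain subunit enriched in brown fat and muscle, gave 13.17, 14.86 and 12.93. Cox8b, of the same complex, gave 15.16, 16.27 and 14.58. Pool 2 was highest for all 3 genes, and pool 3 was lowest. Over the 9 mutant arrays Ucp1 ran from 10.18 to 15.68, so the wild-type values lie inside that range.

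Most markers of mesothelium, the sheet that covers fat inside the abdomen, were missing. Wt1, a transcription factor of visceral fat and its mesothelium, was above background on 0 of 12 arrays. The same held for Msln (mesothelin), Upk3b (a uroplakin of mesothelium), Bnc1, Upk1b and Calb2. Of 11 mesothelial markers, 3 were present in all 3 wild-type pools: Krt18, Lrrn4 and Krt19. Krt18, a keratin of simple epithelia, gave 7.85, 5.99 and 7.19. Each absent marker has 1 probe here, so that a probe that does not bind its transcript would look the same.

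Genes known to differ between depots were listed after these values were seen. Of 11 genes known for intra-abdominal fat, 5 were present on all 12 arrays, with Thbd (thrombomodulin) at 11.73, 12.05 and 11.61, Nr2f1, a nuclear receptor, at 10.19, 10.49 and 10.19, and Gata6 at 9.47, 9.61 and 9.21. A further 5, among them Tcf21, a transcription factor of visceral mesenchyme, were on none of the 12, and Gata4 was on 3 mutant arrays. Of 6 genes known for subcutaneous fat, 5 were present on all 12 arrays. Tbx15, a transcription factor of subcutaneous preadipocytes, gave 8.51, 8.92 and 8.40, and Hoxc10 gave 8.41, 9.67 and 8.45. Sfrp2, a Wnt modulator, gave 10.74, 10.49 and 10.30, and En1 was on none of the 12. The intra-abdominal list was thus present for 5 of 11 genes and the subcutaneous list for 5 of 6. Wt1, Msln, Upk3b and Bnc1 stand in the intra-abdominal list and also among the mesothelial markers above, so their absence is counted in both. Which depot the pools came from was not tested.

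Transcripts of the neighbouring reproductive organs were partly present. Of 19 epididymis transcripts, 14 were present in no pool, among them Crisp1, Lcn5, Lcn8, Adam7 and Gpx5, which are secreted by its epithelium. Lcn12, the brightest of the 3 that were present, gave 9.35, 9.80 and 9.63. Of 18 testis germ cell transcripts, 9 were in no pool, Pgk2, Odf1 and Dazl included, 4 were in 1 pool, and 5 were in all 3: Sycp3, Spaca1, Prm2, Tnp2 and Prm1. Sycp3, of the meiotic chromosome axis, gave 7.54, 9.26 and 7.83, and the protamine Prm2 gave 6.69, 6.65 and 6.65. Skeletal muscle was mixed: 13 of 22 transcripts were present in 3 pools, with Myl1 at 12.77, 13.35 and 12.48. The muscle-defining Ckm, Myh1, Mb and Actn3 were in none. Of 14 pancreas transcripts and 14 neuron transcripts, 7 and 6 were in no pool. Snap25, of the synaptic release machinery, was nevertheless bright, at 13.49, 14.26 and 13.66.

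**Figure D2:**
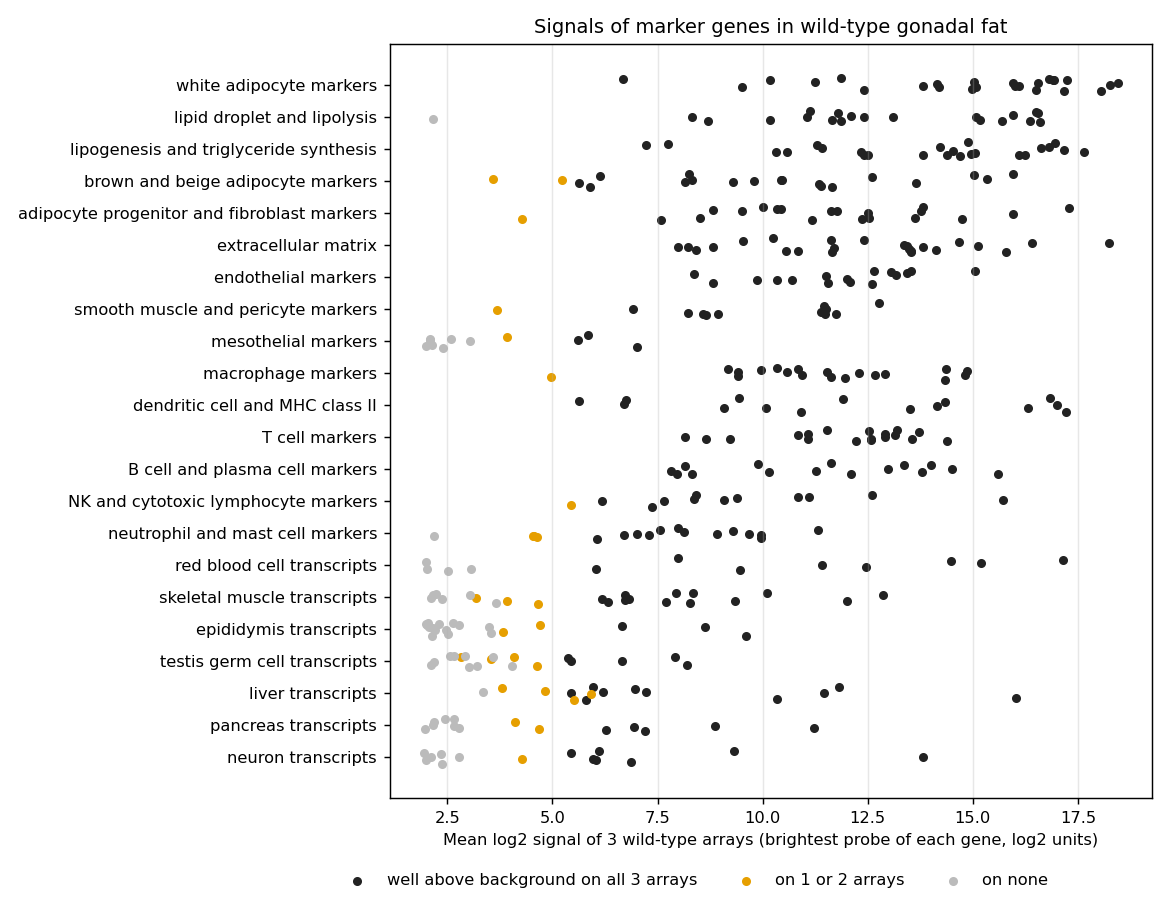
Mean log2 signal over the 3 wild-type pools (horizontal axis) of every matched member of 22 marker lists (rows), black where the probe was well above background on all 3 arrays, orange on 1 or 2, and grey on none. The white adipocyte markers reach from 6.67 to 18.45 with no grey point, while 14 of 19 epididymis and 7 of 11 mesothelial points are grey.

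Immune cells were richly represented. All 18 T cell markers, all 15 matched B cell and plasma cell markers and all 15 markers of dendritic cells and MHC class II were present in 3 pools. Lck, the T cell receptor kinase, gave 14.40, 14.13 and 14.64, and Cd79b, of the B cell receptor, gave 15.71, 15.46 and 15.61. Pool 2 was lowest for both. H2-Ab1, an MHC class II chain, gave 17.21, 17.37 and 17.04. Of 19 macrophage markers, 18 were present, led by Retnla, a marker of alternative activation, with 14.62, 15.41 and 14.54, and by Lyz1 (lysozyme) with 14.97, 14.62 and 14.84. Ccl5, a chemokine of cytotoxic lymphocytes, gave 15.84, 15.35 and 15.99.

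Genes of lymph nodes, again listed after the values were seen, were present on all 12 arrays for all 13 matched members. Glycam1, the ligand for L-selectin made by high endothelial venules, gave 13.43, 13.13 and 13.50. Ccl19, a chemokine of the T cell zone, gave 13.34, 13.30 and 13.32, and Cxcl13, the chemokine of B cell follicles, gave 12.59, 11.97 and 12.59. Cr2, a complement receptor of B cells and follicular dendritic cells, gave 14.00, 13.50 and 13.89. The SD between pools was 0.02 for Ccl19 and 0.36 for Cxcl13, with the other two between. On the mutant arrays Glycam1 ran from 11.49 to 13.31. The part of such tissue in the lymphocyte values above was not tested.

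The other cell types of the stroma were present too. All 16 endothelial markers were on in 3 pools, led by Egfl7, an angiogenic secreted factor, at 14.89, 15.39 and 14.84. Progenitor and fibroblast markers were present for 19 of 20, with Dcn (decorin) at 16.20, 16.03 and 15.67. Of the extracellular matrix genes, all 24 were present. Sparc, a collagen-binding protein, gave 18.09, 18.68 and 17.93, and the fibrillar collagen chain Col1a2 gave 16.64, 16.60 and 15.97. Blood left its mark in the haemoglobin chain Hba-a2, at 16.98, 17.44 and 17.00.

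The 25 brightest named genes were a mixture of adipocyte, matrix and housekeeping genes with genes of no known weight in fat. Slc10a1, the bile acid transporter of hepatocytes, ranked first, with 18.80, 19.17 and 18.70, while its other probe was above background in 0 pools. These are values of probes, and whether each probe measures the gene it is named for was not tested. Kctd14 ranked next with a mean of 18.76 ± 0.24 (SD, n = 3), and its next probe had 9.24. Elk1, a transcription factor, had 18.55 with the brighter probe and 5.33 with the other. In all, 14 of the 25 have another probe; the next probe lay within 2 log2 units for 2 of them and more than 6 log2 units lower for 11. Among all 4593 present genes with another probe the next probe was that much dimmer for 7.19%, and among the 56 of the 100 brightest genes with another probe it was for 16.

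By contrast, Actb (cytoplasmic actin) had 18.27 ± 0.08 (SD, n = 3), Fabp4 18.27 ± 0.26, Cfd 18.45 ± 0.36 and Car3 18.06 ± 0.24, each with 1 probe. Tpt1, a growth-related protein with 3 probes, had 18.01, and its next probe gave 18.02. Rps14 and Rplp2, of the ribosome, had 18.07 and 17.98, and Fau, also of the ribosome, lay between them. Cox6a1, of the respiratory chain, had 18.01. The rest of the 25, in order, were Rn4.5s, Glrx2, Exosc2, Ttc38, Milr1, Sparc, Fam177a2, Med16, Ndor1, Pbld1, Zfp628, Synrg and Hccs. Cytosolic ribosomal protein genes made up 35 of the 100 brightest and white adipocyte markers 6. Ranking every gene with several probes by its dimmest probe, a choice made after these values were seen, left 58 of those 100 in place. Genes with 1 probe keep their value in that order and cannot fall. As 56 of the 100 have another probe, a large part of the 58 was fixed in advance. Of the genes with several probes those near the top of that order included Rpl10, Rps12, Tpt1, Rps29, H2-Ab1, Dbi, Rpl38, Gsn and Rps27, and Retn (resistin) followed with 16.68.

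**Figure D3:**
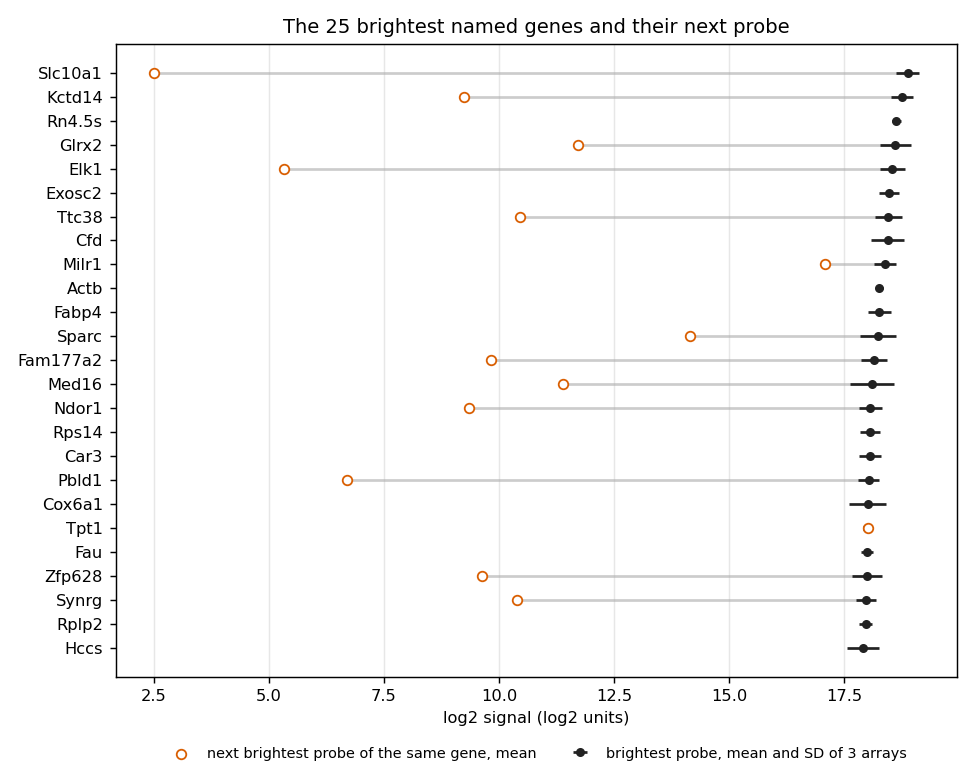
Log2 signal of the brightest probe (black, mean and SD of the 3 wild-type pools) and of the next brightest probe (orange circle, mean) for the 25 brightest named genes. For 11 genes the next probe lies more than 6 log2 units lower, and for Slc10a1 it lies at 2.49 and is above background in 0 pools.

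The 3 pools were alike for most genes. Over 14461 genes whose brightest probe was present in 3 pools, the median SD between pools was 0.21 log2 units, against a median within-genotype SD of 0.19 on the mutant arrays. Between pools 1 and 3 the median absolute difference was 0.15 and 131 genes differed by over 2-fold. Pool 2 differed from pool 1 by a median of 0.29, with 541 such genes, and from pool 3 by 0.33, with 629. Probes with 10 spots on the array had a median SD over spots of 0.05 and over pools of 0.21. In all, 922 genes (6.38%) spanned over 2-fold and 50 over 4-fold. Pool 2 was the highest for 48.1% of all genes and for 59.8% of those spanning over 2-fold. With the genes split into 4 equal groups by brightness, it lay above the mean of the other pools by a median of 0.18 in the brightest group, against 0.03, 0.00 and 0.04 in the others. After quantile normalization the 4 medians lay between -0.02 and -0.00. Pool 2 was still the highest for 40.5% of the genes after quantile normalization.

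The genes of adipocyte metabolism were highest in pool 2. White adipocyte markers deviated from their mean over the pools by -0.10, 0.36 and -0.26 in pools 1, 2 and 3, and 22 of 25 were highest in pool 2. Such list values, here and below, use every member present in at least 1 wild-type pool. For lipogenesis the deviations were -0.16, 0.45 and -0.28, with 23 of 24 highest in pool 2, and for oxidative phosphorylation they were -0.10, 0.38 and -0.28, with 26 of 27. For brown and beige markers they were -0.17, 0.53 and -0.36. Quantile normalization left the direction in place with 18 of 25 white adipocyte markers, 22 of 24 lipogenesis genes and 21 of 27 oxidative phosphorylation genes highest in pool 2, but the excess of pool 2 over the other pools was smaller. It fell from 0.54 to 0.31 for the white adipocyte markers, from 0.57 to 0.31 for oxidative phosphorylation and from 0.58 to 0.37 for fatty acid oxidation. In the authors' deposited table these were 0.28, 0.27 and 0.34. On the scale of deviations from the mean of all 12 arrays, white adipocyte markers stood at -0.21, 0.25 and -0.37 in the wild-type pools and between -0.58 and 0.61 on the mutant arrays.

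Lymphocyte, interferon and cell cycle genes ran the other way. All 12 markers of cytotoxic lymphocytes were lowest in pool 2, with deviations of 0.35, -0.48 and 0.13; the gap of pool 2 to the other pools was -0.73, and -0.41 after normexp background correction. Of 22 proliferation genes present, 1 was highest in pool 2 (Aurka, at 9.24, 9.28 and 9.26), and their deviations were 0.14, -0.29 and 0.15. Interferon-stimulated genes had 0.21, -0.34 and 0.13, and 0 of 18 were highest in pool 2. T cell markers were highest in pool 3 for 16 of 18, with -0.02, -0.26 and 0.28. Cytosolic ribosomal proteins differed little, with -0.02, 0.03 and -0.01 and a median SD of 0.10, and the sign of their pool 2 value turned under quantile normalization, median centring, normexp background correction and in the authors' deposited table. The adipocyte and lymphocyte lists move in opposite directions across the same pools, and the part of tissue composition in either was not tested.

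Pool 1 stood apart in a set of lysosomal and lipid-handling macrophage genes. Trem2, the lipid receptor of macrophages in fat, gave 11.45 in pool 1 against 8.51 and 8.31 in pools 2 and 3, and 7.87 to 9.75 on the 9 mutant arrays. Gpnmb, a lysosomal glycoprotein of such macrophages, gave 10.08 against 7.87 and 7.55, with 7.33 to 8.72 on the mutant arrays. Clec4d, a myeloid lectin, gave 8.78, 4.90 and 5.25, and Atp6v0d2, a proton pump subunit, 8.06, 4.93 and 4.66. In each of the 4 genes pool 1 lies above every other array of the series. A list of 17 such genes, chosen after these values were seen, deviated by 0.87, -0.37 and -0.50, and 13 of its 17 members were highest in pool 1. Of the 17, 15 were present in 3 pools and 2 in only 1 or 2 pools. Against the mean of all 12 arrays the list stood at 1.00 in pool 1, and the mutant arrays of slide 1 stood at 0.28, 0.23 and -0.19. The excess of pool 1 over the other pools was 1.30, and 0.77 after normexp. The general macrophage markers had deviations of 0.30, -0.10 and -0.19, with 15 of 19 highest in pool 1.

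Kidney and liver transcripts were also highest in pool 1, and here the wild type was not alone. Kap, the androgen-regulated protein of the kidney's proximal tubule, gave 9.71 and 9.19 in pools 2 and 3, stood 1.70 above the mean of the pools in pool 1, and ran from 4.78 to 13.28 on the mutant arrays. Spink1, a trypsin inhibitor, gave 8.39, 6.13 and 5.79. A list of 27 kidney transcripts, also chosen after these values were seen, had 16 present in 3 pools and 5 in none: the salt transporters Slc12a1 and Slc12a3 of the distal nephron, Kl, Cyp2j5 and Slc22a8. Its deviations were 0.93, -0.39 and -0.54, and the excess of pool 1 over the other pools was 1.39, and 0.67 after normexp. These values use 22 members. Of these, 6 were present in only 1 or 2 pools, and their values in the rest carry no level. Against the mean of all 12 arrays the list stood at 1.39 in pool 1, at 1.74 in Gadd45a-KO replicate 1 and at 2.24 in DKO replicate 2, and at 0.08 or lower on the other 9 arrays. Liver transcripts deviated by 0.64, -0.44 and -0.20 (an excess of 0.96 in pool 1, and 0.37 after normexp). Ahsg (fetuin) was at 8.38, 6.29 and 7.02 and Alb (albumin) at 10.73, 10.20 and 10.10. Of the 14 liver members used, 10 were present in 3 pools and 4 in only 1 or 2. Whether the kidney and liver transcripts come from tissue other than fat was not tested.

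**Figure D4:**
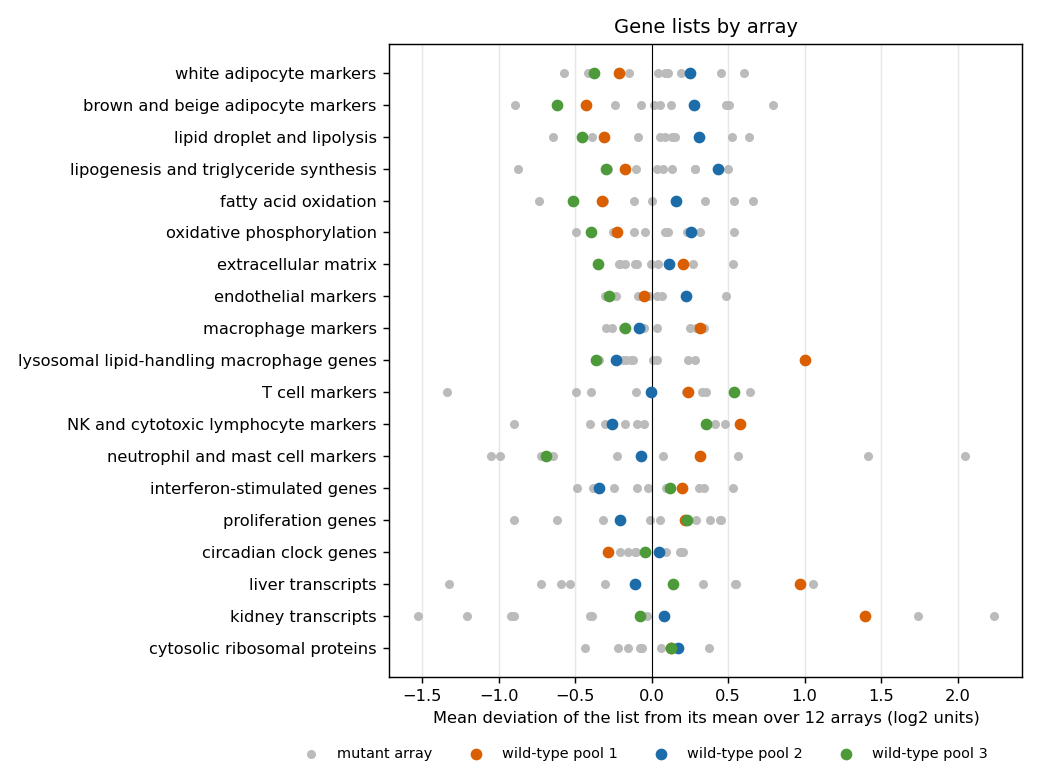
Mean deviation of 19 gene lists (rows) from their mean over the 12 arrays, in log2 units, for wild-type pool 1 (orange), pool 2 (blue), pool 3 (green) and the 9 mutant arrays (grey). The lysosomal macrophage list lies at 1.00 in pool 1, above all other arrays, whereas for kidney transcripts 2 mutant arrays lie above pool 1.

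Among single genes Syt10, a synaptotagmin that senses calcium in secretion, varied most, with 7.98 in pool 1, 13.59 in pool 2 and 6.17 in pool 3. Its mutant arrays ran from 7.14 to 10.82. Olfr577, an olfactory receptor, followed with 8.63, 5.04 and 4.50, and Rhox2h, a homeobox gene of the reproductive tract, gave 4.86, 8.42 and 4.92. Fabp3, the fatty acid binding protein of heart and brown fat, gave 9.49, 12.36 and 10.53, and its other probe gave 9.25, 11.95 and 10.16, in the same order. Tmem179 gave 7.75, 9.98 and 7.53, again matched by its other probe with 7.65, 9.93 and 7.34. The other probe of Fam13c did not follow: the brighter gave 9.09, 7.14 and 9.68, and the other 5.70, 6.67 and 5.59. The other probe of Kcnrg was present in 1 pool and was highest in pool 2, as the brighter probe was. That of Rhox2h was also present in 1 pool but did not follow: it gave 2.08, 2.61 and 4.82 and was highest in pool 3. The rest of the 25 have 1 probe each or another that was present in at most 1 pool.

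Of 16 neutrophil and mast cell markers present in some pool, 7 spanned over 2-fold between pools. S100a9, a calcium-binding protein of neutrophils, gave 11.30, 9.84 and 8.76, and Ltf (lactoferrin) 6.20, 7.80 and 4.18. Saa3, an acute phase protein made in inflamed fat, gave 7.49, 6.08 and 4.94. On the mutant arrays S100a9 ran up to 14.79, beyond the wild-type span. Others of the 25 were Kcnrg, Vsig8, Kbtbd3, Prm1, Sgsm1, Klrb1, Zc2hc1c, Dnase1 and Prss33. Of the 25, 14 were highest in pool 1, 10 in pool 2 and 1, Fam13c, in pool 3.

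**Figure D5:**
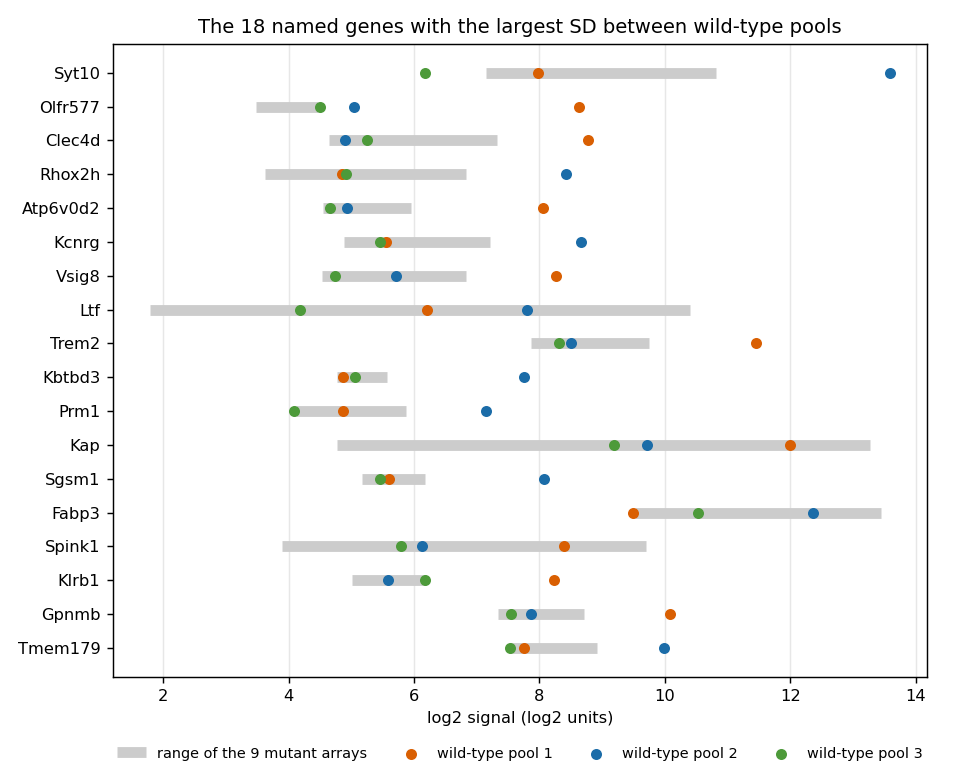
Log2 signal in wild-type pool 1 (orange), pool 2 (blue) and pool 3 (green) of the 18 named genes with the largest SD between pools, with the range of the 9 mutant arrays as a grey bar. Pool 1 of Trem2 and Gpnmb lies to the right of the bar, whereas all 3 pools of Kap lie inside it.

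The 100 most variable genes had SDs from 3.87 down to 0.86, and the gene next in order had 0.86. Their median signal was 6.96 log2 units, against 10.06 for all present genes. Their within-genotype SD on the mutant arrays, which did not choose them, had a median of 0.52 against 0.19, and it was above the median of all genes for 95 of the 100. The genes compared were not matched for signal, so the part of dimness in this was not tested. For 9 of the 100 another probe was present in 3 pools, and for 6 of the 9 it was highest in the same pool. Over all 3719 genes with another present probe that share was 54.4%. For 8 of the 100, the median of the spots around the gene's own spot (within 2 rows and 1 column) was raised on that array beyond the 99th percentile of all genes, 0.48 log2 units. Zc2hc1c was one of these, with a surrounding median of 1.26. Their promoters more often held TATAAA, in 26.6% of 79 windows, than all windows did, in 12.7%; this is a description and not a test.

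A further set was present in 1 pool alone. The 10 genes with the largest SD among those present in 1 or 2 pools were Eno4, Olfr1162, Vstm2a, Apobec2, Btn2a2, Scgb2b3, Il1f5, Scgb1b27, Calhm4 and Olfr145. Eno4, a sperm enolase, gave 9.54 in pool 2 and was below background in pools 1 and 3. Of the 10, 5 were present in pool 1 alone and 5 in pool 2 alone. Around 5 of the 10 spots the surrounding median was beyond the same 99th percentile, and around Apobec2 it was 1.78. At the other end, the steadiest of the 500 brightest genes were H2-Q7, Rpl23a, Rps23, H2-Eb1 and H2-T23, each with an SD of 0.02. H2-Q7, an MHC class I gene, gave 16.28, 16.27 and 16.30. H2-Q7 and H2-T23 belong to a family of near-identical genes whose probes can share signal.

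Ing1, deleted in 2 of the 3 mutant genotypes, was the feature that passed the threshold between the wild type and the mean of the mutants. In a limma fit of the wild type against the mean of the 3 mutant genotypes, 1 of 31453 features passed an adjusted p of 0.05 (0.00318%), and 2134 had an unadjusted p below that. Ing1, a reader of histone methylation, gave 12.45, 12.43 and 12.49 in the wild-type pools and means of 12.55 in Gadd45a-KO, 9.40 in Ing1-KO and 9.32 in DKO. The mean of Gadd45a-KO lay above all 3 wild-type pools, and the low values were those of the genotypes that lack Ing1. Ing1 was higher in wild type by 2.04 ± 0.12 log2 units (SE, adjusted p = 2.26e-05 by limma), and within slides 1, 2 and 3 by 2.15, 2.05 and 1.91. These are values of its brightest probe. Another Ing1 probe was present on 3 wild-type and 7 of the 9 mutant arrays, where its lowest value was 3.20. A further probe was present on 3 wild-type and 3 mutant arrays, with a lowest mutant value of 2.02. Without wild-type replicate 3 the count was 2, the second being 1700113H08Rik. Gadd45a, the stress-response gene deleted in the other line, gave 9.33, 9.80 and 9.41 in wild type. Its means were 10.17 in Gadd45a-KO, 9.20 in Ing1-KO and 10.61 in DKO. For Gadd45a the difference was -0.48 ± 0.11 (SE, adjusted p = 0.72 by limma), and within slides -0.72, -0.22 and -0.49. Where its 1 probe lies relative to the deletion is not given in the sources used here, so it checks no label.

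Of 603 list members tested, 0 passed this limma test, and 40 had an unadjusted p under 0.05. Over all 31453 features, 1 passed, 2134 had such an unadjusted p, and 17290 were higher in wild type. The T cell markers were higher in wild type for 18 of 18 with a median difference of 0.32 log2 units, and the lymph node genes for 13 of 13 with 0.32, beside a median of 0.03 over all features. Gadd45a-KO was not below wild type in these values. Against the mean of the 12 arrays, T cell markers stood at 0.24, -0.00 and 0.54 in wild type, at 0.33, 0.35 and 0.64 in Gadd45a-KO, at -0.39, 0.22 and -0.10 in Ing1-KO, and at -0.49, -1.34 and 0.00 in DKO. DKO replicate 2 was also the lowest for lymph node genes, at -1.30. The 25 ribosomal proteins were all higher, with a median of 0.20, which fell to 0.07 with 21 of 25 higher after quantile normalization. Against the mean of the 12 arrays they stood at 0.12, 0.17 and 0.13 in wild type and at 0.16, 0.06 and 0.37 in Gadd45a-KO. In Ing1-KO they stood at -0.22, -0.06 and -0.16, and in DKO at -0.07, -0.43 and -0.08. Brown and beige markers had a median of -0.41, with 2 of 20 higher in wild type. On the scale of the 12 arrays they stood at -0.43, 0.28 and -0.62 in wild type and at 0.12, -0.07 and -0.90 in Gadd45a-KO. In Ing1-KO they stood at -0.24, 0.01 and 0.05, and in DKO, the highest, at 0.79, 0.49 and 0.51. In 168 features (0.534%) the wild-type values did not overlap those of the mutants.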

How the data were processed

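Total RNA of 12 pools was hybridized to 1-colour Agilent arrays. Per the file headers, Feature Extraction 10.7.3.1 made the deposited intensity values, background-subtracted and detrended, and its flags for spots well above background. The authors' deposited table holds log2 values; the submitters' processing notes name limma 3.26.9, and its filter and scaling are not given in the sources used here. Flagged outlier spots and control spots were left out, the log2 intensity was averaged over a probe's spots, and each array was shifted to a common 75th percentile. A probe was present where at least 0.5 of its usable spots were so flagged. Of 55681 probes, 94 lost all usable spots on some array; 27509 got a gene symbol from a GRCm38.p6 table by matching their RefSeq accession (29150 have one). A gene's level is that of its brightest probe over the 12 arrays; its presence is that of any probe. The only test was limma 3.58.1 in R 4.3.3, with intensity trend and robust moderation, on features present on at least 3 of 12 arrays, two-sided and adjusted by Benjamini-Hochberg. On simulated data of 31453 features, it recovered 53.5% of 200 features changed 2-fold in wild type, with 6 false calls. Changes of that size can therefore be missed. Pools are separate animals, but 3 pools limit the precision. Named are the 25 brightest, 25 most variable, 10 partly present and 5 steadiest genes, up to 4 leading members of each list and absent defining markers; others were named after their values were seen, and 2 genes that the rule names are not reported here. The members, the 37 lists and the 5 lists added later were chosen with earlier results of these data known. Alternatives were quantile, median and normexp processing, the authors' table, other filters and leaving out arrays.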

Additional observations from a re-analysis of the deposited data

Results flagged for a closer look

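Of 28118 probes without a gene name, 11898 (42.3%) were well above background in all 3 wild-type pools, a signal in probes that the description of named genes does not use. Features without a name also entered the limma fit against the mutants, where 15954 of 31453 have one. Of the 11898 probes, 5945 are named only by a genome interval. They had a median signal of 7.47 log2 units and a median SD between pools of 0.25, and 37 of the 100 brightest probes in the tissue have no gene name.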

How the results depend on the processing

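Counts of present genes changed most with the detection call. With the software's test of a positive and significant signal in place of the well-above-background mark, 2260 genes were present in no pool instead of 4856. Leaving out a wild-type array gave 14485 to 15029 genes present on the other two and 4947 to 5469 on neither. Of the 100 brightest genes, 96 to 98 were shared when an array was left out. When the dimmest probe of a gene set its rank, a setting chosen after seeing the data, 58 were shared. Genes with 1 probe could not fall under that setting, and 56 of the 100 have another probe. Of the 100 most variable, 60 were shared after normexp, 13 among the brighter 50 percent, 7 with genes present in at least 1 pool, and 44 to 80 when an array was left out. The wild type called 1 feature against the mutants under every alternative run, the replicate block included, except without wild-type replicate 3, where it was 2; leaving out arrays gave 1 to 2. Arrays of different genotypes were also correlated by their deviations from the mean of their genotype. Same-number arrays, which share a slide, had correlations of -0.28 to 0.57 (median 0.13, 18 pairs) and other pairs a median of -0.08 (36). The reported fit has no block. The difference of pool 2 from the other pools reversed for mesothelial markers (-0.81 as reported, normexp 0.0078), neuron transcripts (authors' table, -0.063) and ribosomal proteins (quantile -0.238, median centring -0.0313, normexp -0.0556, authors' table -0.286); the cause was not tested. Signals near background limit the dim genes.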
